A study of Mus musculus with 4 samples.

Results

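Chemokine receptors are surface proteins that couple to inhibitory G proteins and steer T cells along gradients of small secreted proteins, the chemokines. Ccr7 leads T cells into lymph nodes and the T cell zones of lymphoid organs, while receptors such as Ccr2, Ccr3, Ccr4, Ccr6, Ccr8, Ccr9, Cxcr3 and Cxcr6 are known for guiding cells into skin, gut, lung or inflamed tissue. Regulatory T cells (Treg), CD4 T cells that express Foxp3 and hold other lymphocytes in check, use both kinds, and Treg that have acquired effector traits commonly carry more of the tissue receptors than resting Treg. The 9 genes named here form the set described below, 1 lymphoid-organ receptor beside 8 tissue receptors. They were picked by name, with earlier results of these data known. Each gene was read from its brightest probe set among those annotated with a single gene symbol. Each of the 9 had 1 such probe set, among 22180 genes measured in this way.

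The RNA came from Treg of mice injected into the peritoneum with an agonistic antibody against death receptor 3 (DR3, a costimulatory receptor of the tumour necrosis factor receptor family) or with an isotype control antibody. Both groups were of the strain Foxp3Luci-DTR-4 (B6 Albino), their cells were sorted on CD4 and a green fluorescent Foxp3 reporter 4 days after injection, and each group had 2 arrays. The labels give no age, sex, organ of origin or number of mice per array, and they do not say that replicates came from separate animals, so the spread between arrays may be technical. All 8 measured markers of Treg and CD4 T cells lay above the array median of all probe sets on all 4 arrays, and Foxp3 stood at log2 intensities of 11.93 and 11.90 after anti-DR3, against 11.89 and 11.81 after control antibody. Of these 8 markers, Ikzf2, a transcription factor of Treg, was higher after anti-DR3 (0.58, limma adjusted p = 0.0193). Il2ra, the alpha chain of the interleukin 2 receptor, was lower (-0.49, limma adjusted p = 0.0441). The other 6 did not pass the test described below. Intensities are on a scale normalized across arrays, so a value is comparable between arrays for the same gene and not between genes.

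After anti-DR3, 6 of the 8 receptors bright enough to test were higher (Ccr3, Ccr2, Ccr8, Ccr4, Ccr6 and Cxcr3, by 1.67- to 2.89-fold), 0 were lower and 2 did not pass the test (Ccr7 and Cxcr6). Ccr9 was too dim to be tested. The test was limma across 12114 genes with Benjamini-Hochberg adjustment, called at an adjusted p under 0.05, and a difference is the mean log2 intensity after anti-DR3 minus that after control antibody. Over all genes tested 5.96% were called, 4.49% as higher and 1.47% as lower. The median difference of the 8 receptors was 0.87, against 0.01 over all genes tested. The 2 groups of arrays did not overlap for 7 of the 8 receptors, where 56.1% of all genes did not overlap. An unadjusted p under 0.05 was found for 7 of the 8, where 26.1% of all genes had one. Because the set was picked with earlier results known, these comparisons with all genes describe it and do not test it. The 8 tested receptors lay above the median of all probe sets on all 4 arrays, so none of them entered the test through 1 group alone. In sorted cells measured in bulk, more cells that carry a receptor and more RNA per cell cannot be told apart.

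Ccr3, the receptor for eotaxins that is best known from eosinophils, had the largest difference of the set. Its intensities were 117 and 149 after anti-DR3, against 45.5 and 45.9 after control antibody. Both anti-DR3 arrays were far above the control arrays, which sat just above the array medians of 41.6 and 42.0. On the log2 scale Ccr3 averaged 7.05 ± 0.24 after anti-DR3 and 5.51 ± 0.010 after control antibody (SD, n = 2 each), a rise of 1.53 ± 0.12 (SE; 95% interval 1.23 to 1.84) or 2.89-fold (limma, adjusted p = 0.00988). It ranked 16 among the 12114 genes ordered from the largest rise. Markers of eosinophils, basophils and mast cells stayed under the array median for 10 of 10 genes on all 4 arrays, with summed intensities of 217 and 194 after anti-DR3, against 205 and 202 after control antibody. Siglecf, Epx and Mcpt8, defining genes of eosinophils and basophils, were among these dim genes. The part of such cells in the Ccr3 value was not tested.

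Ccr2, the receptor for Ccl2 that also drives monocytes out of the bone marrow, was next. Its intensities were 299 and 289 after anti-DR3, against 117 and 147 after control antibody. The groups did not overlap, and the anti-DR3 arrays lay closer together than the control arrays. The mean log2 intensities were 8.20 ± 0.033 and 7.03 ± 0.24 (anti-DR3 and control antibody, SD, n = 2 each), which gave a rise of 1.17 ± 0.12 (SE; 95% interval 0.86 to 1.47) or 2.24-fold (limma, adjusted p = 0.0114, rank 44). Monocyte and macrophage markers had summed intensities of 535 and 564 after anti-DR3, against 494 and 502 after control antibody over 10 genes, of which 4 were too dim to test. The log2 differences of these 4 were 0.53 (Mpeg1), 0.22 (Cd14), -0.32 (Fcgr1) and -0.34 (Adgre1). Csf1r rose (0.42, limma adjusted p = 0.0387), and Lyz2, Itgam, Cd68, Ly6c2 and Tyrobp did not pass, at 0.43, 0.47, 0.11, -0.09 and -0.14. Of these, Itgam entered the test only through the anti-DR3 arrays, at log2 values of 5.48 and 5.79, against 5.21 and 5.12 after control antibody. Its groups did not overlap (limma, unadjusted p = 0.0078), in a direction fixed by the filter. The part of these cells in the Ccr2 value was not tested.

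Ccr8 and Ccr4 are receptors of skin-homing T cells and of Treg in inflamed tissue, with the ligands Ccl1 (Ccr8) and Ccl17 and Ccl22 (Ccr4). Ccr8 had intensities of 362 and 424 after anti-DR3, against 216 and 197 after control antibody. Ccr4 had 395 and 383 after anti-DR3, against 184 and 230 after control antibody. For both genes the lower anti-DR3 array exceeded the higher control array by a wide margin (log2 differences between single arrays of at least 0.74 for Ccr8 and 0.73 for Ccr4). Ccr8 rose by 0.92 ± 0.11 (SE; 95% interval 0.66 to 1.19) or 1.90-fold (limma, adjusted p = 0.0136, rank 100). Ccr4 rose by 0.92 ± 0.12 (SE; 95% interval 0.62 to 1.22) or 1.89-fold (limma, adjusted p = 0.0187, rank 105). The 2 intervals overlapped over most of their length.

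Ccr6, the receptor for Ccl20 found on T cells of the T helper 17 type and on B cells, had intensities of 314 and 274 after anti-DR3, against 159 and 172 after control antibody. Cxcr3, the receptor for Cxcl9, Cxcl10 and Cxcl11 that marks T cells of type 1 responses, had 590 and 611 after anti-DR3, against 319 and 406 after control antibody. Neither gene's groups overlapped, and the control arrays of Cxcr3 were further apart than its anti-DR3 arrays. Ccr6 rose by 0.82 ± 0.10 (SE; 95% interval 0.58 to 1.07) or 1.77-fold (limma, adjusted p = 0.0151, rank 149). Cxcr3 rose by 0.74 ± 0.13 (SE; 95% interval 0.43 to 1.05) or 1.67-fold (limma, adjusted p = 0.0336, rank 199), and it missed the threshold with arrays shifted to a common median of the tested genes (0.68, adjusted p = 0.0527). Among 4 tested B cell markers Ighm and H2-Aa rose by 0.63 and 0.70 on the log2 scale. Cd79b and Cd22 did not pass, at 0.18 and -0.04, and Ms4a1, Pax5, Cd79a and Blnk were too dim to test. Summed over 8 B cell markers, intensities were 4329 and 4540 after anti-DR3, against 2832 and 3058 after control antibody. Most of this sum was Ighm, read from the brightest of its 7 probe sets. Its intensities were 3990 and 4215 after anti-DR3, against 2539 and 2771 after control antibody. The part of B cells in the Ccr6 value was not tested. Of 9 markers of CD8 T and natural killer cells 4 were bright enough to test, of which Cd8b1 rose (0.49, limma adjusted p = 0.0416). Eomes, Nkg7 and Gzmk did not pass, at 0.05, 0.03 and -0.16. The other 5 were too dim, with log2 differences of 0.28 (Klrb1c), 0.17 (Cd8a), -0.25 (Ncr1), -0.27 (Klrk1) and -0.46 (Klrd1).

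Ccr7 went the other way without passing the test. Its intensities were 735 and 592 after anti-DR3, against 1218 and 860 after control antibody. Both anti-DR3 arrays lay below both control arrays, and the replicates of each group were widely spaced. The log2 values were 9.52 and 9.21 after anti-DR3, against 10.25 and 9.75 after control antibody (SD 0.22 and 0.35, n = 2 each), and the difference of means was -0.63 ± 0.19 (SE; 95% interval -1.09 to -0.17; limma, unadjusted p = 0.0152, adjusted p = 0.104). Among 12114 genes it ranked 73 from the most negative difference. The intervals of the 6 receptors that rose lay above 0 and that of Ccr7 below 0, and no test of the difference between genes was made. Among 5 tested markers of conventional CD4 T cells, a list that also holds Ccr7, Pde3b and Igfbp4 were lower after anti-DR3 (-0.99 and -0.55, limma adjusted p = 0.0102 and 0.0269). Summed over the other 6 measured markers of this list, intensities were 1049 and 1164 after anti-DR3, against 1519 and 1280 after control antibody, and the part of such cells in the Ccr7 value was not tested.

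Cxcr6 and Ccr9, receptors of tissue-resident and of gut-homing T cells, gave no difference that the arrays could show. Cxcr6 had intensities of 69.3 and 49.4 after anti-DR3, against 68.4 and 52.0 after control antibody. The groups overlapped fully, and the difference of -0.03 ± 0.20 (SE; 95% interval -0.51 to 0.46; limma, adjusted p = 0.949) does not separate a change within that interval from none. Ccr9 had 28.8 and 28.9 after anti-DR3, against 30.3 and 27.0 after control antibody. These values lay below the median of all probe sets on all 4 arrays, with a log2 difference of 0.01, and a level this dim cannot show whether the gene was expressed.

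**Figure D1:**
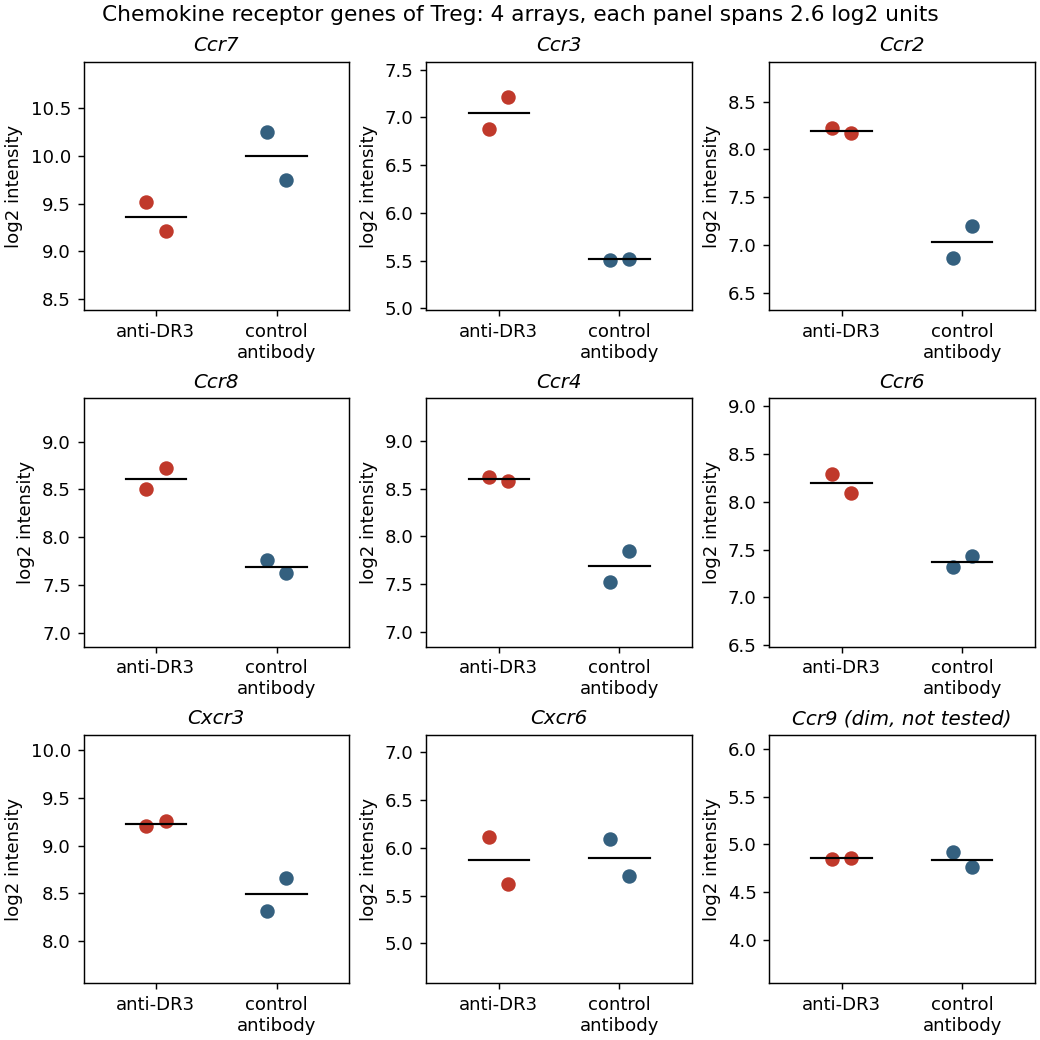
Log2 intensity of the 9 receptor genes on each array (points, anti-DR3 in red left of control antibody in blue; lines are group means of 2 arrays; every panel spans the same number of log2 units around its own centre). Ccr3, Ccr2, Ccr8, Ccr4, Ccr6 and Cxcr3 are higher on both anti-DR3 arrays, Ccr7 is lower on both with wide spacing, and Cxcr6 and Ccr9 overlap.

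The promoter letters of receptors that rose are shown because 6 of the genes moved together. RefSeq (GRCm38.p6) gave windows before an annotated transcription start for 8 of the 9 genes (all but Ccr7), 9 windows in all, since Ccr6 had 2. The 250 bases before each start were searched on both strands, and each share is set beside that over 32851 windows of the same length across all genes. The AP-1 letters TGANTCA, the site class bound by Batf with Jun, were in 2 of the 9 windows (Ccr3 and Ccr4) and in 6.75% of all windows. The GATA letters AGATAA were in 4 windows (Ccr2, Ccr3, Ccr8 and 1 of Ccr6), against 9.99%. The RUNX letters TGTGGT were in 2 windows (Cxcr3 and Cxcr6), against 14%. The T-box letters AGGTGTGA were in 0 windows, against 1.12%. The kappaB consensus was in 2 windows (Ccr3 and 1 of Ccr6, there as overlapping matches), against 7.25%. In Ccr3 and Ccr4 the AP-1 match had the same letters and began 144 and 143 bases before the start. Both of these windows lie inside the outer limits of the gene, whose outermost annotated start is 4146 (Ccr3) and 8932 bases (Ccr4) further upstream. Stretches of 30 bases around the AP-1 match (capitals), 5′ to 3′ along the gene, read as follows, for Ccr3 at chr9:124021816-124021845 on the plus strand and for Ccr4 at chr9:114496669-114496698 on the minus strand.
Ccr3: cagtctgtccaTGAGTCAatgattattggg
Ccr4: gtttggggaaaTGAGTCActcagctttttt
For Ccr8 (chr9:120091883-120092132, plus strand) and Cxcr3 (chrX:101734148-101734397, minus strand), both of which rose and whose windows end at the outermost annotated start, the whole 250 bases follow, with the AGATAA match of Ccr8 and the TGTGGT match of Cxcr3, each on the opposite strand, in capitals.
Ccr8: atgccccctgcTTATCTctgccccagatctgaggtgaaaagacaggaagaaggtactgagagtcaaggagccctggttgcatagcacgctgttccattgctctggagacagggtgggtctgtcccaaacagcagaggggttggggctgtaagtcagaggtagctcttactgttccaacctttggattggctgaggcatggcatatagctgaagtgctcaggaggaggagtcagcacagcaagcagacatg
Cxcr3: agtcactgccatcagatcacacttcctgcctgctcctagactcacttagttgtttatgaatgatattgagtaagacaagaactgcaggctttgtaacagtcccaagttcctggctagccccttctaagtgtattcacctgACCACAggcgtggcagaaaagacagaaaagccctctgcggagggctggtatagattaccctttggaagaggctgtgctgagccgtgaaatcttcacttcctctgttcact
A match is a run of letters and was not measured as a bound site.

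The 6 rises did not all hold when an array was left out, which leaves 1 residual degree of freedom and assumes that the lone array varies like the other group. Limma called 1 receptor without anti-DR3 replicate 1 (Ccr3; 0.272% of all genes), 0 without anti-DR3 replicate 2 (0% of all genes, while 6 of the 8 receptors and 1967 genes had an unadjusted p below 0.05), 2 without control antibody replicate 1 (Ccr2 and Ccr3; 0.792%) and 5 without control antibody replicate 2 (all of the 6 but Ccr8; 2.58%). Over these 4 fits Ccr3 ranged from 1.36 to 1.70, Ccr2 from 1.0 to 1.33, Ccr8 from 0.81 to 1.04, Ccr4 from 0.76 to 1.08, Ccr6 from 0.72 to 0.92 and Cxcr3 from 0.56 to 0.91. Ccr7 ranged from -0.88 to -0.38 and Cxcr6 from -0.27 to 0.22. With no filter on dim genes limma called 0 of the receptors and 14 of 22180 genes (0.0631%). An unadjusted p below 0.05 was then found for 7 receptors and 3573 genes. An ordinary linear model called 0 receptors and 0% of all genes (5 receptors and 2087 genes unadjusted). With arrays shifted to a common median, 5 of the 8 receptors were called, all higher, where 4.88% of all genes were (348 higher and 243 lower, against 544 higher and 178 lower without the shift).

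**Figure D2:**
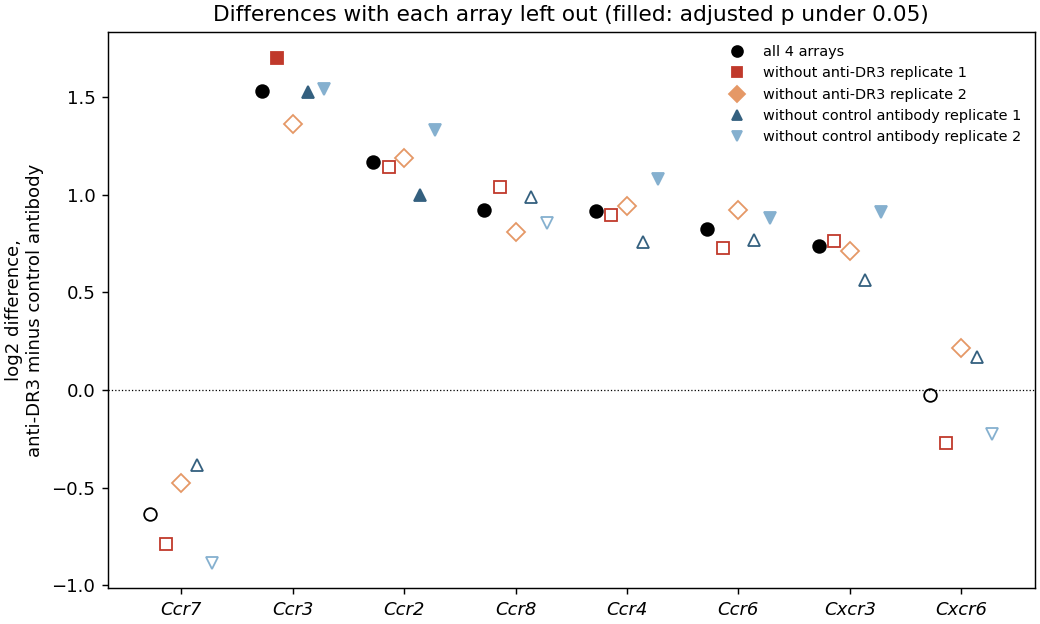
Log2 difference (anti-DR3 minus control antibody) of the 8 tested receptors with all 4 arrays and with each array left out, filled where the adjusted p was under 0.05. The 6 receptors that rose stay above 0 in every fit while each loses its call in at least 1, Ccr7 stays below 0, and Cxcr6 lies on both sides of 0.

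Of 14 other chemokine receptors measured, 8 were bright enough to test, 1 rose and 0 fell, with a median difference of 0.13. The 1 was Ccrl2, an atypical receptor that binds chemerin, at log2 values of 8.10 and 8.21 after anti-DR3, against 7.38 and 7.47 after control antibody, a rise of 0.73 ± 0.087 (SE; limma, adjusted p = 0.0144). Cxcr4, which holds cells in bone marrow and other niches through Cxcl12, stood at 10.40 and 10.40 after anti-DR3, against 10.16 and 10.08 after control antibody (difference 0.28 ± 0.080, adjusted p = 0.0941). Cxcr5, which leads T cells into B cell follicles, differed by 0.11 ± 0.097 (95% interval -0.13 to 0.35; adjusted p = 0.539). Ccr10, Ackr3, Cxcr2, Cx3cr1 and Ackr2 lay between -0.19 and 0.17 and did not pass. Their differences were not tested against those of the 9 receptors.

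**Figure D3:**
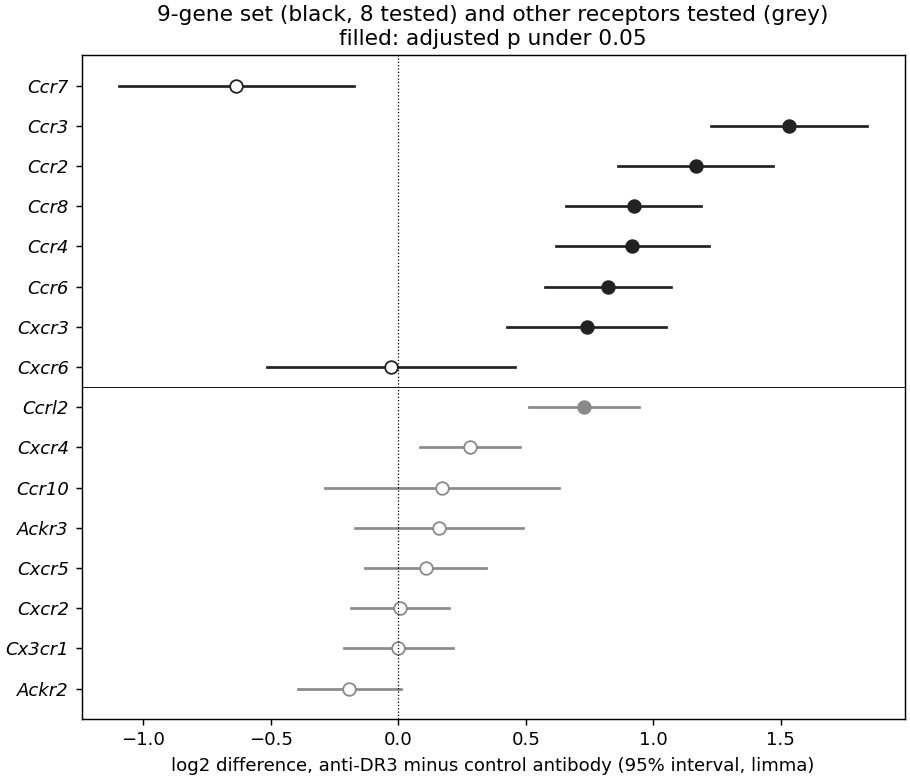
Log2 difference (anti-DR3 minus control antibody) with its 95% interval from limma for the 8 tested receptors of the set (black) and 8 other chemokine receptors (grey), filled where the adjusted p was under 0.05. Ccr3 is furthest right at 1.53, Ccr7 furthest left at -0.63, and Ccrl2 is the filled point among the grey ones.

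Several of the receptors are neighbours in the genome. In the RefSeq table of GRCm38.p6, 6 of the 9 genes lie on chromosome 9. Ccr3 and Ccr2, which had the largest rises, are next to each other. Along this cluster Ccr9, Cxcr6, Xcr1, Ccr1, Ccr1l1, Ccr3 and Ccr2 follow each other in that order, with Fyco1 between Ccr9 and Cxcr6, and their log2 differences were 0.01, -0.03, -0.02, 0.64, -0.38, 1.53 and 1.17. Xcr1, Ccr1 and Ccr1l1 were, like Ccr9, too dim to test. Ccr8 (0.92) is next to Cx3cr1, the fractalkine receptor gene, whose difference was 0.00068 ± 0.087 (95% interval -0.21 to 0.21). The remaining receptors of the set, Ccr7, Ccr6 and Cxcr3, lie on chromosomes 11, 17 and X.

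**Figure D4:**
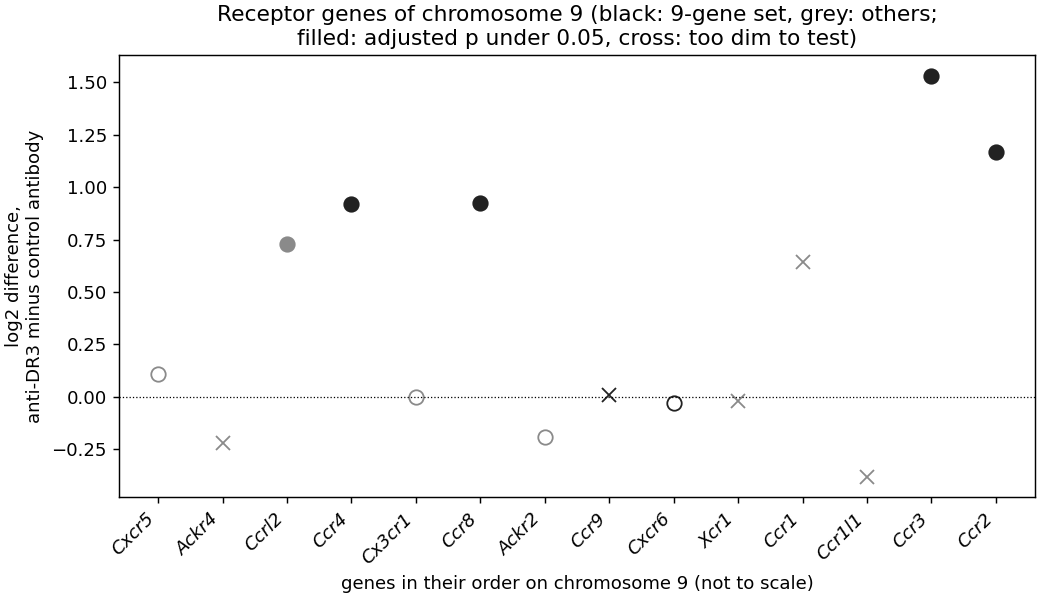
Log2 difference (anti-DR3 minus control antibody) of chemokine receptor genes in their order along chromosome 9 (black, the set; grey, other receptors; filled, adjusted p under 0.05; crosses, too dim to test). Ccr8 (0.92) stands next to Cx3cr1 near 0, and Ccr3 (1.53) and Ccr2 (1.17) are the highest points, at the end of the order.

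Among the chemokines themselves, 13 of 29 measured genes were too dim in these cells and 16 were tested. Of these 3 were called higher and 0 lower, with a median difference of 0.01. Cxcl10, a ligand of Cxcr3, rose by 1.62 ± 0.11 (SE; limma, adjusted p = 0.00626). Cxcl11, another ligand of Cxcr3, entered the test only through the anti-DR3 arrays, so its call was fixed in direction by the filter. Its log2 values of 5.40 and 5.36 after anti-DR3 lay just above the array medians, against 4.71 and 4.8 below them after control antibody. Ccl5, which binds Ccr3 among other receptors, stood at log2 intensities of 9.04 and 9.58 after anti-DR3, against 8.49 and 8.40 after control antibody, a rise of 0.86 ± 0.18 (adjusted p = 0.0494) that missed the threshold in 11 of 14 alternatives. Ccl2, Ccl11, Ccl17, Ccl22 and Ccl24, ligands of Ccr2, Ccr3 or Ccr4, were too dim to test. Ccl1, Ccl20, Ccl25 and Cxcl16, which bind Ccr8, Ccr6, Ccr9 and Cxcr6, differed by 0.22, -0.13, -0.11 and 0.29 and did not pass.

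Of 14 tested partners of tissue homing, integrins, selectin ligand enzymes and other receptors, 7 were called higher and 1 lower, with a median of 0.48. Itgae, the integrin chain that binds E-cadherin, rose by 1.27 ± 0.10 and Itga2, a chain of a collagen receptor, by 1.15 ± 0.11 (SE; limma, adjusted p = 0.00988 and 0.0105). Gpr55, a lipid receptor, rose by 1.04 ± 0.11 and Gcnt1, an enzyme that helps to build selectin ligands, by 0.77 ± 0.084 (adjusted p = 0.0107 and 0.0114). Cd44, which binds hyaluronan, and Itgb7, a chain of gut-homing integrins, rose by 0.53 and 0.48 (adjusted p = 0.0403 and 0.0400). Fut7, another enzyme of selectin ligands, also entered the test only through the anti-DR3 arrays, at log2 values of 6.07 and 6.17, against 5.38 and 5.26 after control antibody. S1pr5, a sphingosine 1-phosphate receptor, had the 1 fall (-0.42, adjusted p = 0.0449). Its log2 values of 5.44 and 5.34 after anti-DR3 lay just above the array medians, against 5.80 and 5.82 after control antibody. Of 8 tested partners of lymphoid homing and egress 0 were called, 4 had an unadjusted p under 0.05 and the median was -0.14. Klf2, a transcription factor that keeps up lymph node homing and egress receptors, stood at log2 intensities of 8.61 and 8.68 after anti-DR3, against 9.34 and 9.02 after control antibody, a difference of -0.54 ± 0.12 (limma, adjusted p = 0.0615). S1pr4, Foxo1 and Klf3, the others under the unadjusted threshold, differed by 0.45, -0.32 and -0.23 (adjusted p = 0.0663, 0.0838 and 0.179). Among 35 tested genes of chemokine receptor signalling, from G proteins to the regulators of Rac, 0 were called in limma and 11 had an unadjusted p under 0.05, with a median of 0.11.

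Of 15 tested transcription factors known to govern homing receptors or effector differentiation in T cells, 5 rose and 2 fell, and the median difference was 0.40. Batf, an AP-1 family factor of effector Treg, rose by 0.92 ± 0.089, Ahr, a ligand-activated factor, by 0.71 ± 0.089 and Rora by 0.62 ± 0.082 (SE; limma, adjusted p = 0.0104, 0.0161 and 0.0187). Bach2, which represses effector genes, fell by 0.69 ± 0.089 (adjusted p = 0.0177). Id2 and Irf4 also rose (0.54 and 0.46) and Satb1, a chromatin organizer, also fell (-0.88, adjusted p = 0.0373). Tbx21, known to drive Cxcr3, differed by 0.22 ± 0.15 (adjusted p = 0.405). Of 6 tested markers of type 2 innate lymphoid cells 3 rose, Klrg1, Rora and Il9r (1.47, 0.62 and 0.70). This list shares Rora and Gata3 with the T cell transcription factors above. Gata3, Arg1 and Il13 did not pass, at 0.24, 0.17 and -0.09, and Il5 was too dim. Arg1 entered the test only through the anti-DR3 arrays. Summed intensities of the 7 genes were 2234 and 2561 after anti-DR3, against 1338 and 1224 after control antibody. The largest part was Klrg1, at 1256 and 1537 after anti-DR3, against 549 and 456 after control antibody. The part of such cells in the receptor values was not tested. Of 4 tested dendritic cell markers and 3 tested thymocyte markers 0 were called in limma. Only 1 had an unadjusted p below 0.05, the dendritic cell marker Cd209a, which was lower after anti-DR3 (-0.25, limma, unadjusted p = 0.0461).

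**Figure D5:**
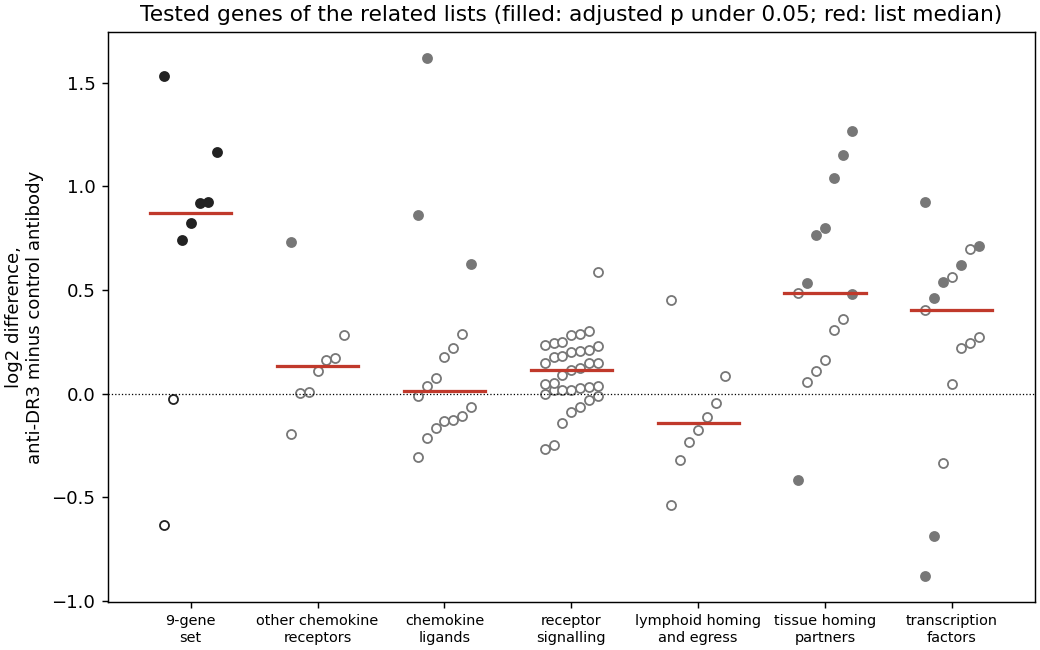
Log2 difference (anti-DR3 minus control antibody) of each tested gene in the set and in 6 related lists (filled, adjusted p under 0.05; red lines, list medians). The median is 0.87 for the receptors, 0.48 for tissue homing partners, 0.40 for transcription factors and between -0.14 and 0.13 for the others.

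The genes whose values over the 4 arrays lay nearest to each receptor were found by the root mean square distance between log2 values, each gene centred on its own mean. For Ccr2 the nearest was Itga2 (distance 0.0302), for Ccr8 Rilpl2 (0.0329) and then Batf (0.0368), and for Ccr4 Aurkb, a mitotic kinase (0.0184), and then Anxa4 (0.0194). For Ccr3 it was Cenpe, a motor protein of the kinetochore (0.0563), for Ccr6 Cpq (0.029), and for Cxcr3 Apaf1, the scaffold of the apoptosome (0.0299). Klf7 was nearest to Ccr7 (0.0316), with a difference of -0.67. With 4 arrays in 2 groups this likeness rests mostly on the group difference itself.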

How the data were processed

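Per the submitters' processing notes, the authors made the deposited intensities with RMA, a method that corrects background, normalizes between arrays and summarises probes into 1 value per probe set. Per the labels, RNA targets carried biotin and went onto Affymetrix whole-transcript arrays. The deposited intensities proved linear, and log2 was taken. For software versions and genome build, the sources used here name none. Such normalization can hide a change shared by all genes.

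The platform annotation gave 1 symbol for 23521 of 41345 probe sets, several for 1814 and none for 16010. Each gene was read from its brightest probe set, and genes above the array median on at least 2 of 4 arrays were tested (12114 of 22180). The test was limma 3.58.1 under R 4.3.3 (functions lmFit and eBayes; 2 residual and 3.94 prior degrees of freedom). An exact permutation test of 2 arrays against 2 cannot go below p = 0.333. The number of arrays limits the precision. The code recovered known changes when tested on simulated data.

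The members, lists, rule for naming genes (all 9 receptors, tested receptors outside them, up to 4 called genes per list, 3 nearest genes per receptor past a log2 difference of 0.5) and alternatives were chosen with earlier results of these data known. Genes named outside the rule, such as Klf2, Tbx21, S1pr5, Fut7, Id2 and single ligands and markers, were chosen after their values were seen. Listed genes without a single-symbol probe set, Ccl19 and Ccl21a among them, were not analysed here. Alternatives covered the filter, normalization, variance model, probe set choice, threshold, replicate block and each array left out. Promoter letters and gene order came from RefSeq tables of GRCm38.p6.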

Additional observations from a re-analysis of the deposited data

How the results depend on the processing

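Directions of the 8 tested receptors were kept in all alternatives apart from Cxcr6. Over receptors and alternatives, 78 values gave the same direction and call, 29 missed the threshold after passing it with all settings as reported, 1 newly passed and 2 changed sign. With no filter on dim genes limma called 0 receptors and 14 genes (7 receptors and 3573 genes under an unadjusted p of 0.05). An ordinary linear model called 0 of each (5 receptors and 2087 genes unadjusted). The stricter filter on dim genes gave 1157 genes and set aside Ccr3 and Cxcr6, a trended robust prior gave 1444, and an adjusted p under 0.10 gave 1689. With each array left out, 0 to 5 receptors and 0 to 312 genes were called. The cause of these differences was not tested. Over those fits Cxcr6 ranged from -0.27 to 0.22, Ccr10 from -0.050 to 0.39, Cxcr2 from -0.014 to 0.030, Cx3cr1 from -0.067 to 0.068 and Ackr3 from -0.030 to 0.35. Centring each array on its median over the tested genes turned Cxcr2 to -0.053 and Cx3cr1 to -0.060, and lowered all differences by 0.061. The labels do not say what replicate numbers share, and deviations of same-numbered arrays correlated at 0.051 across genes. With the replicate number as a block (replicate block) 7 receptors were called, Ccr7 (adjusted p = 0.0379) joining the 6, beside 563 genes. Signals near the array median, as for Ccr3 after control antibody, Cxcr6 and Ccr9, limit what could be seen of them.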

Other observations

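Among receptors too dim to test, Ccr1, which shares ligands with Ccr3, had log2 intensities of 4.48 and 4.59 after anti-DR3, against 3.91 and 3.87 after control antibody, all below the array medians. Of the 6 dim receptors outside the set, 2 had groups that did not overlap. These were Ccr1 and Ccr1l1 (3.45 and 3.10 for Ccr1l1 after anti-DR3, against 3.85 and 3.47 after control antibody). Among the genes bright enough to test 56.1% did not overlap, a share that need not hold for dim genes. Grk5, a kinase that switches off G protein-coupled receptors, had the largest difference of the signalling list at 0.58 ± 0.22 (SE; limma, adjusted p = 0.160), at log2 values of 6.77 and 6.45 after anti-DR3, against 5.72 and 6.34 after control antibody. It was named after its values were seen.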
